A study of Homo sapiens with 24 samples.

Results

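H3K27ac, acetylation of lysine 27 of histone H3, marks active promoters and enhancers. Its level was followed here at a set of genes that encode the NF-kB transcription factors or IkB-family and feedback proteins of the same pathway. The set held 10 genes of the 21569 named in the tables. They were the subunit genes RELA, RELB, REL, NFKB1 and NFKB2, the IkB-family genes NFKBIA and NFKBIZ, and the feedback genes TNFAIP3, TNIP1 and BIRC3. A region was taken for a gene when the authors' annotation named that gene as overlapping or flanking it within 10 kb, which gave 173 of 171345 regions over 6 tables, and no region of a comparison was taken for more than 1 of these genes.

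The regions came from ChIP-seq of 24 libraries, in 8 groups of 3. 10A is MCF10A, an immortalized and non-cancerous human mammary epithelial line, and DCIS is MCFDCIS, a line from xenograft tumors of oncogene-transfected 10A cells used as a model of ductal carcinoma in situ at an early, triple-negative stage. Each line carried a puromycin-selected lentiviral hairpin, either 1 hairpin against ANCO1 (shANCO1), the product of ANKRD11, or a control hairpin against GFP (shCTRL), and each was sequenced as H3K27ac immunoprecipitate and as input chromatin. The comparisons ask how H3K27ac at these genes differed between shANCO1 and shCTRL cells of a line, and which of the genes were marked over input in each of the 4 groups. Each table holds 1 log2 fold change and 1 false discovery rate (FDR) per region for whole groups of 3 libraries, so values per library, the spread between replicates and the depth were unknown. Nothing in the sources used here says that the 3 libraries of a group came from separate cultures. A region is called up or down below when its FDR was under 0.05 in the authors' deposited csaw table.

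NF-kB factors are dimers of the 5 subunits. In resting cells IkB proteins such as the NFKBIA product hold them in the cytoplasm, and signals from TNF or interleukin-1 receptors lead to destruction of the IkB protein and entry of the dimers into the nucleus, where they bind kappaB sites. NFKBIA, TNFAIP3, TNIP1, BIRC3, NFKBIZ and several subunit genes are themselves known NF-kB targets. Some of these, NFKBIA, TNFAIP3 and TNIP1 among them, act as brakes on the pathway.

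Promoter sequences of some of the genes are shown, and whether a match went with a gain of acetylation was not tested. The kappaB consensus, matched on either strand, was found in the RefSeq promoter windows (250 bases before and 50 after a start site, GRCh38.p14) of 8 of the 9 genes that matched the RefSeq table by symbol. RELA was the gene without a match, though its promoter region was up in 10A, and RELB was not matched. REL and NFKB2 had matches in windows whose regions were called in neither line. The consensus was in 7.09% of all genes of that RefSeq set. By window it was in 10 of 15 member windows and in 5.91% of all 35116. A looser form of it was present in the same number of member genes, 8, and in 16.4% of all genes. The AP-1 motif, TGACTCA or its reverse complement TGAGTCA, was in 0 of the 15 member windows and in 4.95% of all windows. A match is a sequence description and not evidence of binding. In the following 250 bases before the start site, printed 5′ to 3′ on the strand of the gene, capitals mark the kappaB matches. They are the internal promoter of NFKBIZ (chr3:101849264-101849513, plus strand), the TNFAIP3 promoter (chr6:137867009-137867258, plus strand), the canonical TNIP1 promoter (chr5:151081035-151081284, minus strand), the BIRC3 promoter (chr11:102317234-102317483, plus strand) and, as a promoter that was called in neither line, that of NFKBIA (chr14:35404750-35404999, minus strand).
NFKBIZ: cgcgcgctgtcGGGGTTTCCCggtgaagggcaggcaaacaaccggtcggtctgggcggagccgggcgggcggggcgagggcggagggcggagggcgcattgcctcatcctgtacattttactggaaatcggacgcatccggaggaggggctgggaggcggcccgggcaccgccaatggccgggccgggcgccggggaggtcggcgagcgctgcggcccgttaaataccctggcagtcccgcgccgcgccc
TNFAIP3: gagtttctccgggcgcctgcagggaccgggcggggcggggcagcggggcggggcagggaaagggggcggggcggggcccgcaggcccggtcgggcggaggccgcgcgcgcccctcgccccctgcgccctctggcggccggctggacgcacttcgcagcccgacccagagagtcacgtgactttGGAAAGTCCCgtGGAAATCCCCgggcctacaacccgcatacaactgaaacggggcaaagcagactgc
TNIP1: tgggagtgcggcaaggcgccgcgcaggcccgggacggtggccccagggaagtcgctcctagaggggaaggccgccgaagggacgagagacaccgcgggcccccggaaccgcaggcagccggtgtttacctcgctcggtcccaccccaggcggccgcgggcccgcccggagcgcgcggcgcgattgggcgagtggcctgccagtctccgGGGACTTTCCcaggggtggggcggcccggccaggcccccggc
BIRC3: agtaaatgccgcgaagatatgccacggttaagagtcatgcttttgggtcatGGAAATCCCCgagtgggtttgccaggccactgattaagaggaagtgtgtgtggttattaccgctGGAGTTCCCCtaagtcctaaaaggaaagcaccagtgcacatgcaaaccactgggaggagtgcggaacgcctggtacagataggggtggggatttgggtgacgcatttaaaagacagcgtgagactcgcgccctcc
NFKBIA: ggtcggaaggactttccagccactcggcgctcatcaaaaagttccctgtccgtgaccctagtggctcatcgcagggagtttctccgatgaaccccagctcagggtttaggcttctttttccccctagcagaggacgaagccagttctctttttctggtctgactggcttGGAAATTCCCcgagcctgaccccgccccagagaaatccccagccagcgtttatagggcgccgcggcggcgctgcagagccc

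No member region was called down. In 10A, 32 of 55 member regions were up and 0 were down in shANCO1 cells, against 43.6% up and 0.225% down of all 50284 regions compared. In DCIS, 11 of 35 were up and 0 down, against 23.6% up and 4.86% down of 44790. By csaw's p-value before adjustment, under 0.05, 0 member regions were down in 10A and 0 in DCIS. Few regions in the genome were called down, and 1 of the 55 values in 10A and 5 of the 35 in DCIS were negative without a call, the lowest at -0.72 in NFKB1 in DCIS. In both lines most regions in the genome moved upward, so the zero of the scale does not separate these genes from others: the median log2 fold change was 0.88 over the member regions and 0.76 over all regions in 10A, and 0.85 and 0.52 in DCIS. Above the median of all regions of their line lay 37 of the 55 regions in 10A and 24 of the 35 in DCIS. Member regions were also longer, with a median of 12 tested windows against 9 over all 10A regions and 12 against 7 over all DCIS regions, and the part of length in the share called was not tested. Of the member windows, 52.4% were up in 10A and 30.6% in DCIS, where the shares over all windows were 36.6% and 17.5%.

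Counted by gene, 8 of the 10 members had at least 1 region up in 10A, against 74.3% of all genes named in that table, and 5 of 10 in DCIS, against 32.2%. RELB and REL had none in either line. NFKB1, NFKB2 and NFKBIA were up in 10A without a call in DCIS, and RELA, NFKBIZ, TNFAIP3, TNIP1 and BIRC3 were up in both. Whether a gene's change differed between the lines was not tested, since no value per library was at hand. TNIP1 alone supplied 20 of the 55 regions in 10A and 8 of the 35 in DCIS. Without it 20 of 35 regions were up in 10A (57.1%), but only 4 of 27 in DCIS (14.8%), below the share over all regions, with a median of 0.63.

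By role, 5 of the 17 subunit regions in 10A were up (29.4%, against 43.6% of all regions), with a median log2 fold change of 0.72, and 8 of these 17 regions were those of NFKB1. In the same line 5 of 7 IkB-family regions and 22 of 31 feedback-gene regions were up, with medians of 1.16 and 0.95. In DCIS 1 of 11 subunit regions, 1 of 8 IkB-family regions and 9 of 16 feedback-gene regions were up, with medians of 0.41, 0.88 and 1.27, against 23.6% of all regions up. The differences between roles were not tested. Relative to the median of their line, the median of the subunit regions was -0.048 in 10A and -0.11 in DCIS, and that of the feedback-gene regions was 0.19 and 0.74. The DCIS figure rests on TNIP1: without it 2 of 8 feedback-gene regions were up in DCIS, with a median log2 fold change of 0.89.

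**Figure D1:**
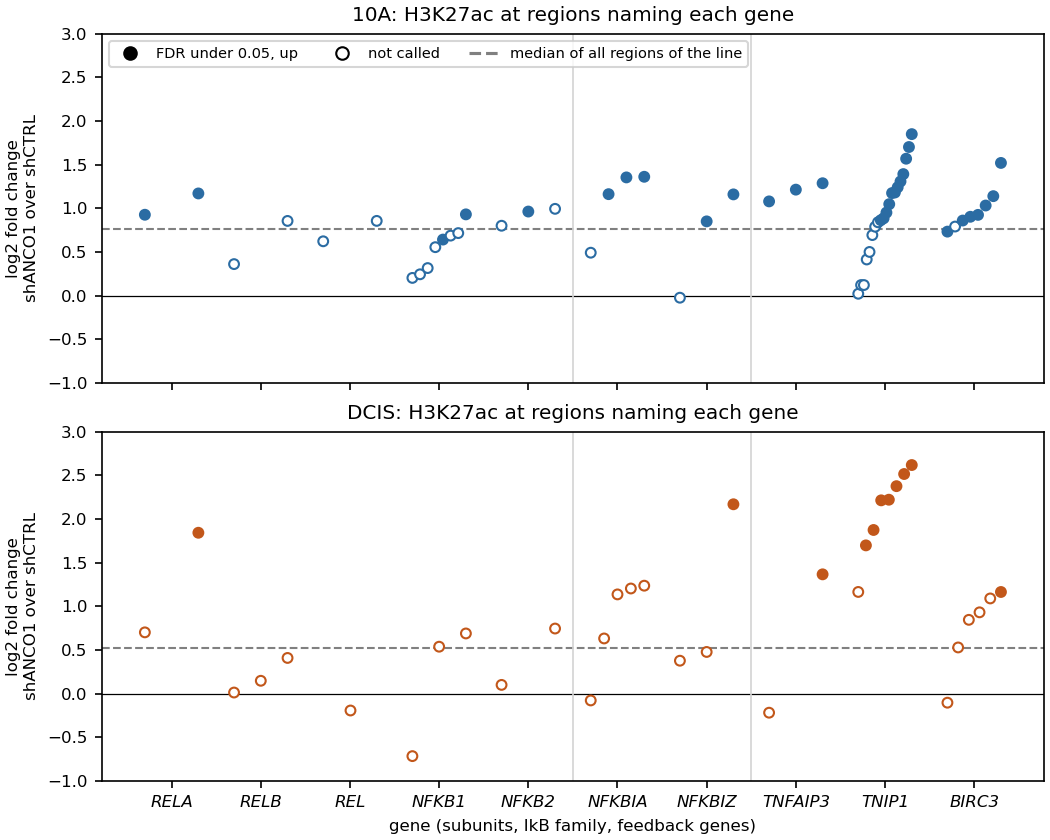
Log2 fold change of H3K27ac, shANCO1 over shCTRL, for each region (1 point) naming each of the 10 genes, in 10A (top, 55 regions) and DCIS (bottom, 35 regions). Filled points are regions up at an FDR under 0.05, and open points were not called. The dashed line is the median of all regions of the line (0.76 and 0.52). The highest DCIS points belong to TNIP1, though not all of its points lie above those of the other genes. The points of RELB and REL are all open.

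RELA, the p65 subunit that carries the transactivation domain of the commonest dimer, lies at chr11:65653599-65663090 on the minus strand. The region over its start site (chr11:65661801-65664100) was up in 10A, with a log2 fold change of 0.93 (FDR 0.007) and 20 of 22 windows up, and was not called in DCIS at 0.70 (FDR 0.508, 0 of 17 windows up). The second RELA region lay at the 3′ end and shared only 2 bases with the gene. It was up in both lines, at 1.17 in 10A (FDR 0.017) and 1.84 in DCIS (FDR 0.0192). That region also flanks MIR4489 and SIPA1, so its tie to RELA rests on position alone.

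RELB encodes the subunit that pairs with p52 in the non-canonical pathway, and REL encodes c-Rel. At the RELB start site the log2 fold change was 0.36 in 10A (FDR 0.296) and 0.15 in DCIS (FDR 0.98). Its other regions ranged from 0.012 to 0.85, with no window up in any of them. At the REL start site the value was 0.86 in 10A and just missed the threshold (FDR 0.0521, 1 of 27 windows up), and it was -0.19 in DCIS (FDR 0.966, 0 of 43 windows up). The second REL region, in 10A, had a value of 0.62 (FDR 0.286).

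NFKB1 and NFKB2 encode the precursors of p50 and p52. The NFKB1 promoter region (chr4:102500401-102504000) was up in 10A at 0.64 (FDR 0.0465, 12 of 34 windows up), below the 10A median of 0.76, and an internal region 92.9 kb from the start site was up at 0.93 (FDR 0.0355). The other 6 NFKB1 regions of 10A ranged from 0.20 to 0.72 without a call. In DCIS the NFKB1 promoter region had a value of 0.69 (FDR 0.0989), and none of 3 regions was called. NFKB2 has several annotated start sites. Its regions over them had values of 0.99 (FDR 0.0725) and 0.80 (FDR 0.0588) in 10A, and the only call was a small region within the gene, with 2 of 4 windows up and a value of 0.96 (FDR 0.0438). In DCIS both NFKB2 regions were uncalled, at 0.75 and 0.10.

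Among the inhibitors, NFKBIA encodes IkB-alpha, which retains the dimers in the cytoplasm. In 10A the region over the start site (chr14:35403301-35406100) was uncalled, with a log2 fold change of 0.49 (FDR 0.0522), above only 26.4% of all 10A regions, although 16 of its 24 windows were up. The adjoining region, which runs through the gene to its 3′ end (chr14:35400501-35403400), was up at 1.36 (FDR 0.000848, 20 of 28 windows up). Beyond the 3′ end 2 further regions were up, at 1.35 (FDR 0.00244) and 1.16 (FDR 0.0113). In DCIS none of the 5 NFKBIA regions was called. The promoter stood at -0.079 (FDR 0.98), and the 3 regions past the 3′ end stood at 1.14, 1.24 and 1.20, the last with an FDR of 0.0506.

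NFKBIZ encodes IkB-zeta, a nuclear IkB protein that works as a cofactor at a subset of NF-kB targets. It has a canonical start site inside the annotated gene and another at the 5′ end of the gene, at -21.5 kb from it. In 10A both promoter regions were up. The upstream one (chr3:101827101-101828800) had a value of 0.85 (FDR 0.0254, 11 of 16 windows up) and the internal one (chr3:101848001-101851600) a value of 1.16 (FDR 0.000108, 22 of 32 windows up). A further region of 1 window, just upstream of the gene, was uncalled at -0.025 (FDR 0.967). In DCIS the upstream promoter had a value of 0.38 (FDR 0.787, 0 of 12 windows up). On the internal promoter's downstream side (chr3:101850001-101851100), beginning 487 bp past the start site, the value was 2.17, a 4.5-fold difference (FDR 0.000377, 9 of 10 windows up). The DCIS region just before that start site was uncalled at 0.48 (FDR 0.465), and the stretch printed above with its kappaB match lay in the gap between these DCIS regions, where no region was listed.

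TNFAIP3 encodes A20, a ubiquitin-editing enzyme that shuts down signalling from TNF and interleukin-1 receptors. All 3 of its 10A regions were up. The region over the start site and both kappaB matches (chr6:137866201-137869300) had a value of 1.21 (FDR 3.08e-05, 20 of 28 windows up), and those further into the gene had values of 1.29 (FDR 0.000879) and 1.08 (FDR 0.00299). In DCIS the region from 142 bp after the start site (chr6:137867401-137868300) was up at 1.37 (FDR 0.0177, 4 of 8 windows up), while the region just before the start site was uncalled at -0.22 (FDR 0.897). The printed TNFAIP3 stretch, with both kappaB matches, lay between these DCIS regions, as at NFKBIZ. All of these regions also name WAKMAR2, the neighbouring divergent transcript.

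**Figure D2:**
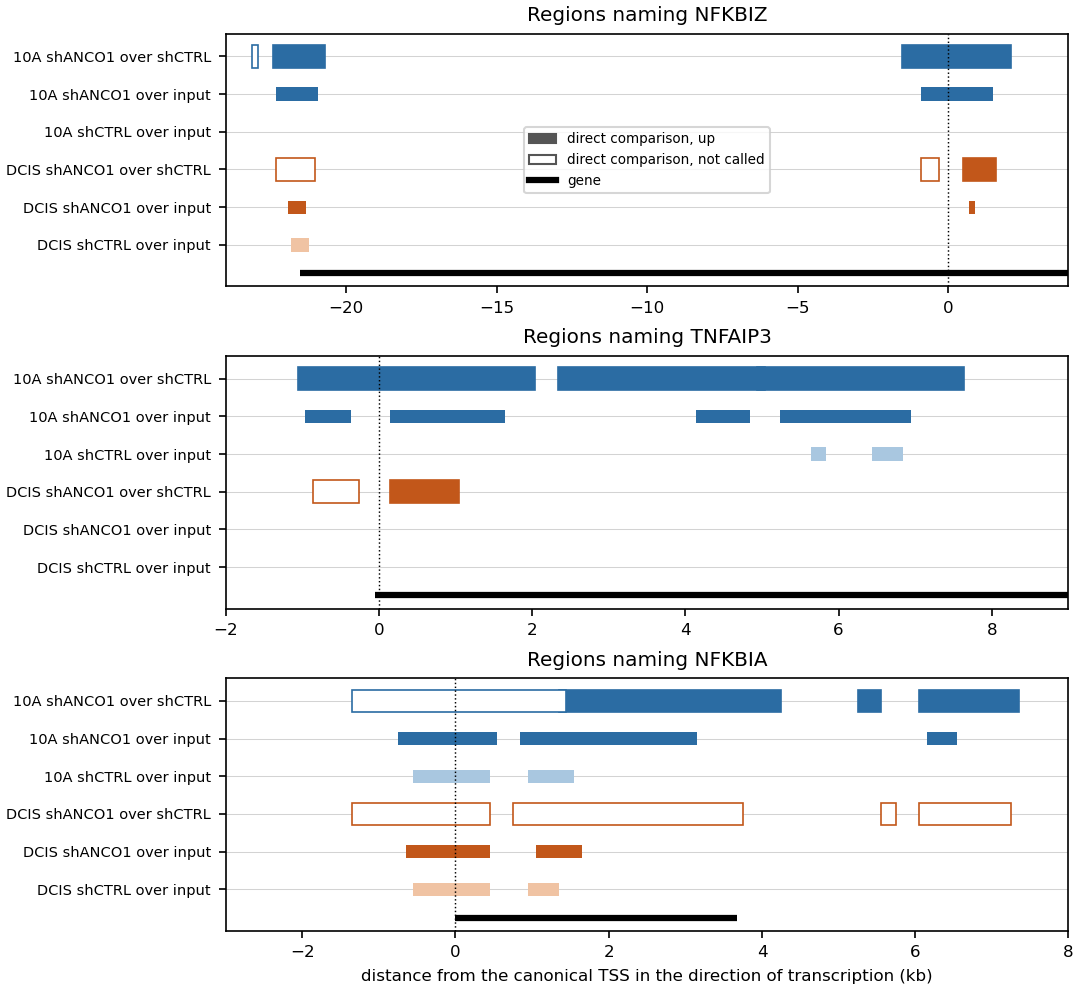
Positions of the regions naming NFKBIZ, TNFAIP3 and NFKBIA, in kb from the canonical start site (TSS, dotted line) in the direction of transcription, with the direct comparisons as wide bars (filled, up; open, not called) and the regions enriched over input as narrow bars. The 10A shCTRL rows hold no bar at NFKBIZ and none within 1 kb of the TNFAIP3 start site, and the filled NFKBIA bars lie downstream of its start site in 10A; 1 uncalled DCIS region 13.05 kb from the NFKBIA start site lies outside the plot.

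TNIP1 encodes ABIN1, a ubiquitin-binding partner of A20, and it had the highest values of the set in both lines. At the canonical promoter, the region in 10A (chr5:151077601-151081900) was up at 1.70 (FDR 6.57e-05, 33 of 41 windows up), and in DCIS (chr5:151079901-151083900) at 2.38 (FDR 1.65e-05, 28 of 38 windows up). The acetylation that differed did not stop there. From the canonical start site upstream over the alternative start sites, 5 of 6 regions in 10A were up, with a summed length of 19.1 kb, at 0.86 to 1.70 (1.82-fold to 3.25-fold). The sixth and outermost, of 2 windows (chr5:151098101-151098400), was uncalled at 0.020 (FDR 0.967). The lowest FDR of the 10A regions of TNIP1 was 9.23e-07, at chr5:151091401-151094500, with a value of 0.88. In DCIS all 3 regions listed there, with a summed length of 12.1 kb, were up, at 2.22 to 2.62 (4.66-fold to 6.14-fold), with 106 of 117 windows up. The lowest FDR of any member region in DCIS was 1.75e-09, at chr5:151083801-151087800, where all 39 windows were up. The outermost of these regions, beyond 10 kb from the canonical start site, also name ANXA6.

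A second group of TNIP1 regions lay near the 3′ end of the gene. The region 39.2 kb from the canonical start site was up in 10A at 1.85 (FDR 0.000194, chr5:151039001-151041800, 13 of 24 windows up). This was the highest value of any 10A member region and above 99.3% of all 10A regions. The overlapping DCIS region was up at 2.52 (FDR 2.3e-05, chr5:151040301-151041900, 13 of 13 windows up). Beside it, chr5:151042401-151043000 was up in DCIS at 2.21 (FDR 0.000344, 5 of 5 windows up). The 10A region inside that stretch was uncalled at 0.12 (FDR 0.816). Nearer and past the 3′ end, 10A regions were up at 1.17 (FDR 0.0134) and 1.57 (FDR 0.00169). Over input, no enriched region was listed at these 3′ sites in any group. Over the intervening gene body the lines differed in which pieces were called. From 3.83 kb after the start site onward, 3 adjoining 10A regions were uncalled at 0.69 to 0.84. The 2 DCIS regions overlapping them were up at 1.87 and 1.70. Further into the gene, 10A regions were up at 1.24, 1.31, 1.39 and 1.18, and others were uncalled at 0.12 to 0.50. The DCIS region there was uncalled at 1.16 (FDR 0.29). At these gene-body sites too, no enriched region was listed over input in any group. In DCIS 7 of 8 TNIP1 regions were up, with a median of 2.22, which is 1.70 above the median of the line; in 10A 12 of 20 were up, with a median of 0.92, which is 0.15 above it. The values ranged from 1.16 to 2.62 in DCIS and from 0.020 to 1.85 in 10A.

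**Figure D3:**
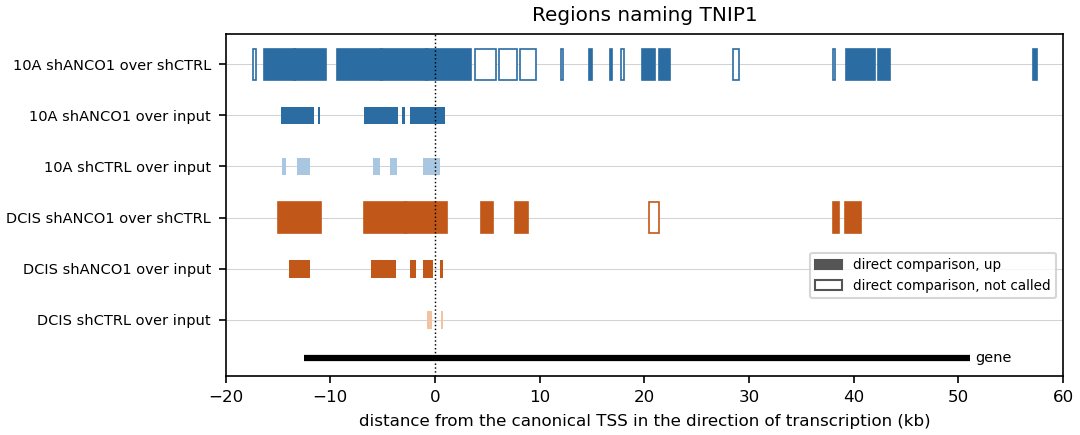
Positions of the regions naming TNIP1, in kb from the canonical start site in the direction of transcription, in the 2 direct comparisons (wide bars; filled, up; open, not called) and the 4 comparisons with input (narrow bars), with the gene as a black line. The upstream stretch is filled in both lines except for its outermost 10A region, and over input it holds 5 DCIS shANCO1 bars but only 2 DCIS shCTRL bars.

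The called regions of the upstream TNIP1 stretch held 9 separate kappaB matches in 10A (4.71 per 10 kb of region) and 9 in DCIS (7.44 per 10 kb), where all compared regions held 1.61 and 1.77 per 10 kb. The following matches stand at -2474 and -6173 bp from the canonical start site. They are shown because each lies in a different called 10A region of the stretch, with 10 bases on each side, on the plus strand and with the match in capitals.
TNIP1 at chr5:151083498-151083527: tggtctggaaGGGGATTTCCaagtcaagaa
TNIP1 at chr5:151087197-151087226: ttaggcaggaGGGGAATTCCccgagatgga

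BIRC3 encodes cIAP2, a ubiquitin ligase that limits cell death and takes part in TNF receptor signalling. In 10A 7 of its 8 regions were up, and the 8 ranged from 0.73 to 1.52. The region over the start site (chr11:102315401-102318600) was up at 0.86 (FDR 0.0232, 11 of 28 windows up), and the strongest evidence lay outside the gene. An upstream region at -8.58 kb from the start site (chr11:102304701-102308900) was up at 1.14 (FDR 7.2e-06), and one beyond the 3′ end (chr11:102344101-102346700) at 1.52 (FDR 4.5e-07, 25 of 25 windows up). The latter lies between BIRC3 and BIRC2, the paralog encoding cIAP1, and names both. In DCIS only the region over the start site was up, at 1.16 (FDR 0.0385), a call that rested on 1 of 27 windows. The 3 DCIS regions upstream of it had values of 1.09 (FDR 0.0901), -0.10 (FDR 0.95) and 0.53 (FDR 0.621), the region after it 0.85 (FDR 0.579), and the one beyond the 3′ end 0.93 (FDR 0.164). The 10A region between the genes held 2 kappaB matches, of which this one is shown because the region had the highest BIRC3 value.
BIRC3 at chr11:102346068-102346097: tcagggtcttGGAATTCCCCcggctcccta

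All member regions together held 3.92 kappaB matches per 10 kb in 10A and 4.49 in DCIS, where all regions held 1.61 and 1.77. In 10A the member regions that were up held 3.31 per 10 kb and the uncalled ones 5.74. In DCIS the order was the other way, at 4.9 and 4.22. Whether matches went with the calls was not tested. Within 500 bp at the region midpoint the consensus was in 8 of 55 member regions in 10A (14.5%, against 7.71% of all regions) and in 6 of 35 in DCIS (17.1%, against 8.59%). AP-1 matches within the same 500 bp were in 4 of 55 (7.27%, against 18.3%) and 8 of 35 (22.9%, against 15.4%). Over their whole length, member regions held 2.99 AP-1 matches per 10 kb in 10A, against 3.1 over all regions. In DCIS the figures were 3.53 and 2.79. Base composition was not taken into account in these counts.

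Over input, the tables hold regions that were already enriched (log2 fold over input of at least 1.74 in every table), and the rule that selected them was not stated, so a gene without a listed region cannot be said to lack the mark. All 10 genes had an enriched region in 10A shANCO1 cells, against 75.7% of all genes named in the tables, and 6 of 10 did in 10A shCTRL cells, against 48.5%. In DCIS, 7 of 10 did in shANCO1 cells, against 60.1%, and 8 of 10 in shCTRL cells, against 56.3%. These tables use the immunoprecipitated libraries of the direct comparisons, so they are no second line of evidence and show where the mark stood.

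In 10A the genes with no enriched region in shCTRL cells were RELA, RELB, NFKB2 and NFKBIZ. In shANCO1 cells RELA had 2.2 kb in 3 regions, RELB 0.7 kb in 2, NFKB2 0.4 kb in 1 and NFKBIZ 3.8 kb in 2 regions, with a log2 fold over input of 5.78 at its upstream promoter and 4.03 at its internal one. TNFAIP3 had 0.6 kb in shCTRL cells, all of it at least 5642 bp past the start site, and 4.5 kb in shANCO1 cells including both sides of the start site. The length at TNIP1 was 4.4 kb in shCTRL and 10.1 kb in shANCO1 cells, and at BIRC3 6.2 kb and 12 kb. Summed over the 10 genes, 14.2 kb was enriched in shCTRL and 43.2 kb in shANCO1 cells. The median log2 fold over input of these member regions was 3.60 in shCTRL and 3.77 in shANCO1 cells. Over the whole tables the enriched length was 9035.2 kb in 10A shCTRL and 25252.5 kb in 10A shANCO1 cells.

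In DCIS the enriched length of the 10 genes was 7.9 kb in shCTRL and 15.5 kb in shANCO1 cells, with medians of 4.43 and 4.71 over input, where the whole tables covered 10958.1 and 11870.1 kb. Those whole-table lengths take in every listed region. The highest FDR listed was 0.228 for DCIS shCTRL and 1.24e-08 for DCIS shANCO1, so the lengths may not be like for like. TNIP1 accounted for most of the difference, with 0.7 kb in 2 regions in shCTRL cells, both within 1 kb of the canonical start site, and 6.2 kb in 5 regions in shANCO1 cells. NFKBIZ had its upstream promoter enriched in both, and a single-window region 687 bp past the internal start site in shANCO1 cells. RELA had 0.3 kb at the 3′ region in shCTRL cells and no listed region in shANCO1 cells, although that same 3′ region was up in the direct comparison. NFKB2 and TNFAIP3 had no enriched region in either DCIS group, so the TNFAIP3 call in DCIS concerns a site listed in neither DCIS input table.

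**Figure D4:**
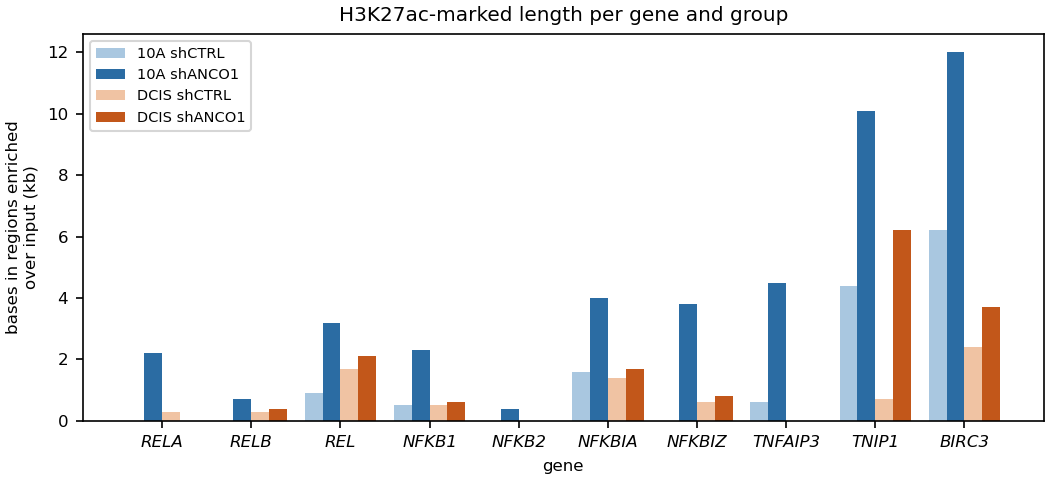
Bases in regions enriched over input (kb, bars from 0) that name each gene, in the 4 groups. The 10A shANCO1 bar is the tallest of its gene at all 10 genes, and at TNIP1 the DCIS shANCO1 bar reaches 6.2 kb against 0.7 kb in DCIS shCTRL.

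The lines were compared at the same places. Of the 55 member regions of 10A, 33 overlapped a member region of DCIS, and of the 35 of DCIS, 30 overlapped one of 10A. Of the 32 regions up in 10A, 10 overlapped a region up in DCIS (31.2%), and of the 11 up in DCIS, 8 overlapped one up in 10A (72.7%). Over all regions these shares were 22.8% and 49.5%. The overlapping member regions up in both lines belonged to RELA, NFKBIZ, TNFAIP3, TNIP1 and BIRC3. Most of the 10 in 10A were regions of TNIP1, so the 10A share rests largely on that gene. The shares were not recomputed without it. At the TNIP1 promoter the values were 1.70 in 10A and 2.38 in DCIS, and at the NFKBIZ internal promoter the 10A region at 1.16 overlapped the uncalled DCIS region at 0.48 and the called one at 2.17. The opposite order was seen at the BIRC3 downstream region, with 1.52 in 10A and 0.93, uncalled, in DCIS, and at the NFKBIA gene body, with 1.36 and 0.63.

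**Figure D5:**
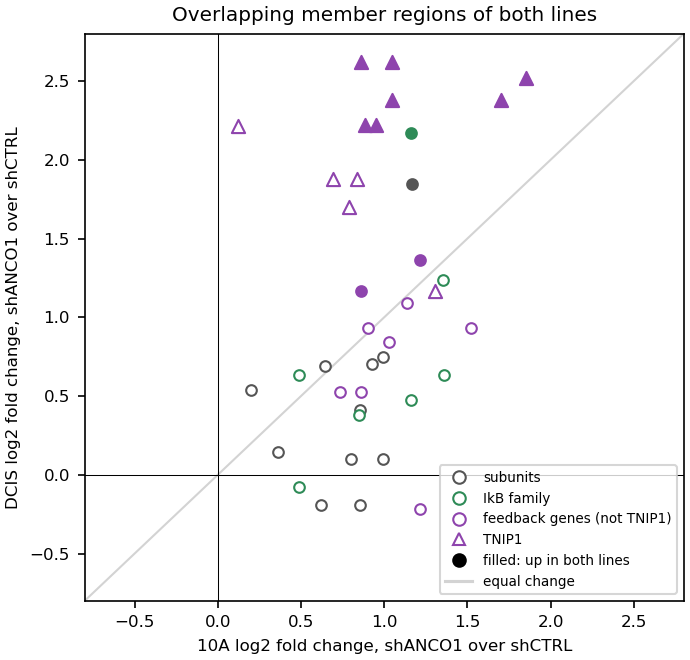
Log2 fold change of overlapping member regions in 10A (x axis) and DCIS (y axis), 1 point per overlapping pair, filled where the region was up in both lines, with the line of equal change in grey. The TNIP1 triangles lie above the line of equal change except for 1 pair, 1.31 in 10A and 1.16 in DCIS.

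Within 1 kb of a canonical start site, 7 of 12 member regions were up in 10A, against 61.2% of all regions placed so, and 4 of 14 in DCIS, against 6.77%. The 4 were those of NFKBIZ, TNFAIP3, TNIP1 and BIRC3. Taken over all 6 tables, the pattern of the promoter region (up or uncalled in the direct comparisons, enriched or unlisted over input) grouped the genes. TNIP1 and BIRC3 shared 1 pattern, up in both lines and enriched in all 4 groups, with 298 of 13231 genes (2.25%). REL and NFKBIA shared another, uncalled in both lines and enriched in all 4 groups, with 1474 genes. NFKBIZ had the pattern of 1066 genes and TNFAIP3 that of 41. RELB and NFKB2, uncalled and enriched in 10A shANCO1 alone, shared theirs with 475. NFKB1, up in 10A and enriched in all groups, had the pattern of 3084 genes, and RELA, up in 10A and enriched in 10A shANCO1 alone, that of 911. For this the authors' promoter letter was used, which is broad: 44 of 138 member entries with that letter lay over 3 kb from any basic coding start site. With the start site and 1 kb on each side in its place, TNFAIP3 was up in both lines and enriched in 10A shANCO1 alone, a pattern of 67 of 11812 genes. NFKBIZ was then up in 10A, uncalled in DCIS and enriched in the shANCO1 cells of both lines alone, a pattern of 293. Under both rules the direct call was that of the region nearest the start site. For NFKBIZ in DCIS this was the uncalled region at 0.48, so the called region at 2.17 is left out of its patterns.

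Of the wider pathway, 70 further genes were listed, of which 65 had a region in 10A and 59 in DCIS. BIRC2 was among them, and regions that name both BIRC2 and BIRC3 were counted here and among the member regions above. At least 1 region was up for 54 of the 65 in 10A and for 27 of the 59 in DCIS, and at least 1 was down for 0 and 3. Over all genes 74.3% and 32.2% had a region up. By region, 153 of 270 were up in 10A (56.7%) and 64 of 209 in DCIS (30.6%), against 43.6% and 23.6% of all regions. In DCIS 3 of the 209 were down, against 4.86% of all regions. Among kinases of the IKK complex and upstream of it, 10 of 11 genes had a region up in 10A and 6 of 11 in DCIS. Among receptors and adaptors the counts were 15 of 19 and 8 of 17. Among other IkB proteins and feedback genes they were 14 of 16 and 4 of 15, and among target genes 15 of 19 and 9 of 16. In 10A the highest values were at CXCL3, a neutrophil chemokine gene, at 2.73 (FDR 2.33e-07), at IRAK2, a kinase of the interleukin-1 receptor pathway, at 1.80 (FDR 0.00017), and at TRAF5, an adaptor of TNF-family receptors, at 1.64 (FDR 0.000667).

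In DCIS they were at BCL2L1, which encodes the survival protein BCL-xL, at 3.45 (FDR 4.64e-08), at CSF2, which encodes GM-CSF, at 3.18 (FDR 3.17e-08), and at CFLAR, which encodes the caspase-8 inhibitor cFLIP, at 3.02 (FDR 1.62e-11, 42 of 42 windows up). The regions down in DCIS were at NFKBIB, which encodes IkB-beta, at -1.92 (FDR 0.0295), at IRAK1 at -1.88 (FDR 0.048) and at BCL3, a nuclear IkB family member, at -1.42 (FDR 0.0159), with 1 of 19, 1 of 23 and 6 of 28 windows down. These 3 were the only pathway genes with a region down in either line.

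Promoters of cell-type markers were also looked up among the regions enriched over input. Promoters of 4 to 6 of 8 basal mammary markers, KRT5 and EGFR among them, were enriched in each group. Of the same list, KRT14 and TP63 were enriched in no group, and KRT17 only in the DCIS groups. None of the promoters of 4 fibroblast, 3 endothelial and 4 immune markers was enriched in any group. An unlisted promoter cannot be said to lack the mark, so these counts do not settle the cell type. Of 8 general and luminal epithelial markers, 5 promoters were enriched in both DCIS groups, 4 in 10A shANCO1 cells and 1 in 10A shCTRL cells. The tables hold no RNA or protein, so the knockdown itself could not be read from them. Regions naming ANKRD11 were up in 7 of 20 cases in 10A and 8 of 16 in DCIS, against 43.6% and 23.6% of all regions, with none down, which is a mark at the gene and no measure of its transcript.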

How the data were processed

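H3K27ac ChIP-seq was analysed from region tables. The methods of the study name BWA and Rsubread for alignment by the authors (GRCh38), samtools for duplicate removal and csaw for the differential test, and FastQC and HOMER are named as well. The log2 fold change in the deposited tables belongs to 1 representative window of each region, and the deposited p-value and FDR combine its windows, as the authors made them from 3 libraries per group. These columns are the results of the authors' own comparisons, and they were used because the tables hold no value per library. Normalization, window filter and choice of input were not stated, and any of them can shift all values of a table. The deposited FDR was taken as the test, no test was added, and depth is unknown.

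Regions were assigned to 10 genes by the symbols in the authors' annotation, and called at an FDR under 0.05. For each gene the text gives the region with the lowest FDR, the promoter region and the values or range of the others, and it names at most 3 other pathway genes per line and direction, by the largest absolute log2 fold change. Start sites and gene bodies were those of GENCODE release 44, promoter sequences those of RefSeq (GRCh38.p14, 250 bases before and 50 after the start), and coordinates are 1-based. Overlap was at least 1 bp. The members, lists and rules were chosen with earlier results of these data known. Alternatives were other FDR limits, a change of at least 1 on the log2 scale with and without centring, at least 5 windows, other ways to assign regions and other motif windows. Leaving out TNIP1 was added after the tables had been seen. The interval and motif code was tested on simulated data. Python 3.11.15 was used with pandas 2.3.3 and NumPy 2.4.6.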

Additional observations from a re-analysis of the deposited data

How the results depend on the processing

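No paired analysis was possible because the tables give 1 value per region for whole groups, without a column per replicate, so neither a replicate block nor leaving out a library could be fitted. The count of member regions down was also 0 in both lines at an FDR under 0.1 and with regions assigned within 5 kb of the GENCODE gene body; the other alternatives narrow the calls and could not have raised it. The 32 regions up in 10A became 20 at an FDR under 0.01, 20 when a change of at least 1 on the log2 scale was required, 19 where no other gene was named and 20 without TNIP1. At least 1 above the median of the line left 1 region of 1 gene, so the 10A calls lie close to the shift of the whole table. The 8 members up in 10A became 5 where no other gene was named. In DCIS the 11 regions up became 4 without TNIP1, and the 5 members up became 2 at an FDR under 0.01, 3 at 1 above the median and 3 where no other gene was named. Of the regions enriched over input, the 20 of 10A shCTRL became 10 at an FDR under 1e-10 and 10 with at least 5 windows, and the 14 of DCIS shCTRL became 7, 5 and, by the overlap column alone, 9. Leaving aside the counts of regions down, 40 of 56 alternative counts stayed within 1.5 times the main count. With the region nearest the start site in place of the one with the lowest FDR, NFKBIA in DCIS went from 1.20 to -0.079, neither called, and the calls at NFKB2 and NFKBIA in 10A and at RELA and NFKBIZ in DCIS were lost. The cause of each shift was not tested. The numbers of member regions with a kappaB match scaled with the window, from 3 regions at 200 bp to 14 at 1000 bp in 10A and from 2 to 13 in DCIS. Without read counts, no limit of detection can be set for genes that have no enriched region.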
